A study of Homo sapiens with 18 samples.

Results

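Long noncoding RNAs were followed by symbol, 7 in all: PCA3, PCGEM1, PCAT1 and DRAIC, which are known from prostate cancer, and NEAT1, MALAT1 and GAS5, which most tissues express. Each symbol matched 1 row, so 7 of 58735 genes in the count table are described. LNCaP cells, an androgen-sensitive line grown from a lymph node metastasis of a prostate cancer, carried a short hairpin RNA against HOXB13 in all 18 libraries, and HOXB13 is a homeobox transcription factor of the prostate lineage that works with the androgen receptor. The knockdown was combined, through an inducible system, with HOXB13 whose residues T8, T41 and S31 were changed to alanine (3A), with wild-type HOXB13 (WT) or with an empty vector (EV). After 48 h in 2% charcoal-stripped serum, which lacks steroids, each of these 3 rescue states received 10 nM R1881, a synthetic androgen, or 0.1% ethanol (vehicle) for 24 h, giving 6 groups of 3 libraries. All groups come from 1 cell line, and no group with intact endogenous HOXB13 was among these samples. The labels do not say that the 3 libraries of a group were separate cultures, so p-values measure the spread between libraries, which may be technical.

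Long noncoding RNAs act as RNA. PCA3 is read from the strand opposite to PRUNE2, from inside that gene, and is measured in urine as a prostate cancer marker; PCGEM1 is a largely prostate-restricted RNA; PCAT1 lies in the gene desert upstream of MYC; and DRAIC was named as an RNA that falls in advanced prostate cancer. NEAT1 is the scaffold of paraspeckles, nuclear bodies built around it, and its neighbour MALAT1 collects in nuclear speckles, where splicing factors are stored. GAS5 carries small nucleolar RNAs (snoRNAs) in its introns, and its spliced exons are read by ribosomes and removed by nonsense-mediated decay, so its level is known to follow growth conditions. In bulk RNA, a lower level per cell and fewer cells that hold the RNA cannot be told apart.

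The coordinates below are those of the deposited table (hg38), and they equal GENCODE 29 for all 58735 genes. PCA3 (ENSG00000225937) spans chr9:76691980-76863307 on the plus strand, opposite to PRUNE2, with which 7.48% of its exon bases overlap. PCGEM1 (ENSG00000227418) lies at chr2:192749845-192776899 on the plus strand. DRAIC (ENSG00000245750) spans chr15:69463026-69843120 on the plus strand. NEAT1 (ENSG00000245532) at chr11:65422774-65445540 and MALAT1 (ENSG00000251562) at chr11:65497688-65506516 are both on the plus strand, 52.1 kb apart. GAS5 (ENSG00000234741) lies at chr1:173863900-173868882 on the minus strand. The models of 3 members are wider than those of RefSeq: 33.1% of the PCA3 exon bases, 11.8% of the PCAT1 exon bases and 9.39% of the DRAIC exon bases fall inside the RefSeq gene. A count of one of these 3 RNAs is therefore a sum over many alternative exons, including, for PCAT1, 5.03% of exon bases shared with POU5F1B on the same strand and 6.90% lying opposite to FAM84B. Whether strand was used in counting is not given in the sources used here, so reads of such overlaps cannot be told apart. The whole PCA3 span lies within PRUNE2 (chr9:76611376-76906087). Without strand, reads of PRUNE2 introns could thus count as PCA3 beyond the shared exon bases.

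Start regions of PCA3, PCGEM1 and DRAIC are shown because their levels differed most, by fold, between androgen and vehicle. Each run is the 300 bases that RefSeq (GRCh38.p14) gives from 250 before to 50 after the annotated start, on the plus strand, and capitals mark one arm of the androgen response element, AGAACA, read on either strand. The PCA3 window lies at chr9:76764186-76764485, the PCGEM1 window at chr2:192749595-192749894 and the DRAIC window at chr15:69561470-69561769.
PCA3: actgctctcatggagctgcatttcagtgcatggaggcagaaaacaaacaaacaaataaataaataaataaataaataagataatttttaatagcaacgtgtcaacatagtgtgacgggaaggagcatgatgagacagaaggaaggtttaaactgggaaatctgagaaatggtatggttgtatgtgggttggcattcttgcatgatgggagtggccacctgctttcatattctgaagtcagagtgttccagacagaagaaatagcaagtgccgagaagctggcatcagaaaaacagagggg
PCGEM1: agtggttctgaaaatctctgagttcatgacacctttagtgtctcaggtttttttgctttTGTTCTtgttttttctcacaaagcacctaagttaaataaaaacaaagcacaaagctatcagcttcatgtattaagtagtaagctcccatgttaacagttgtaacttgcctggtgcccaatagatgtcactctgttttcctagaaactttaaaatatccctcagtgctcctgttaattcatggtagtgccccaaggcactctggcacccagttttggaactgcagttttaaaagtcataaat
DRAIC: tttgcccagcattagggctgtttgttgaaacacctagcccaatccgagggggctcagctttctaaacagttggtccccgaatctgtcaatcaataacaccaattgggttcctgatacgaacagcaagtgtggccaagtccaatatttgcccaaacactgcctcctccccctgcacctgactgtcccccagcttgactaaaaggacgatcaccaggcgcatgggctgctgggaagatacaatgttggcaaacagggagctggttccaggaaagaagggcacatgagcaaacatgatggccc
One such arm was found in the PCGEM1 window, as TGTTCT on the plus strand, 191 to 186 bases before the start. The PCA3 and DRAIC windows held no match, which says only that these letters are not in these windows. Such arms are common: 14.8% of all 35116 promoters in the table hold one, and the window of the second MALAT1 start does, 41 to 36 bases before that start. The HOXB13 motifs CCAATAAA (0.934% of promoters) and CTCGTAAA (0.137%) and the paired arms, AGAACA and TGTTCT with 3 bases between them (0.00285%), matched no window of PCA3, PCGEM1, DRAIC, MALAT1 or GAS5.

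The 5' end of GAS5 is shown because mRNAs of the translation machinery and many snoRNA host genes begin with a terminal oligopyrimidine (TOP) tract, a C followed by pyrimidines, which is set in capitals here. The run is the first 50 bases of the GENCODE 29 transcript ENST00000431268.5, picked as the longest GAS5 transcript that begins with such a tract. The annotated RefSeq start of GAS5 does not begin with one.
GAS5: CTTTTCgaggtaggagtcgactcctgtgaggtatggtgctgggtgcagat
Of 29 annotated GAS5 transcripts, 6 begin with a C and at least 4 further pyrimidines. Among snoRNA host genes of a list of 27, 24 were in that annotation under the same symbol and 14 of them (58.3%) have at least 1 such transcript, against 6.75% of 57133 gene symbols. A gene with more annotated transcripts has more chances to hold such a start. Transcript number was not matched between the host genes and all symbols, so the shares are not like for like. Among the other members, 2 of 20 DRAIC transcripts and 1 of 32 PCAT1 transcripts begin in that way.

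Libraries held 22812641 to 30611980 counts, and 17162 genes passed the filter on low counts and were tested. All 10 luminal prostate markers had at least 10 counts in every library. Of 11 markers of basal, stromal, endothelial and white blood cells, 2 did so (ACTA2 and COL1A1), TP63 was at 0 throughout, and the list summed to 13.9 to 21.8 TMM-scaled CPM in R1881 libraries and to 19.7 to 26.3 CPM in vehicle libraries. Mitochondrially encoded mRNAs took 2.71% to 5.70% of counts. HOXB13 itself averaged 506 ± 71.0, 347 ± 26.2 and 416 ± 9.87 CPM in R1881 in 3A, WT and EV cells, and 758 ± 102, 535 ± 50.1 and 532 ± 33.9 CPM in vehicle (SD, n = 3). The WT mean was thus below the EV mean in R1881 and within 1 SD of it in vehicle. The table does not separate rescue from endogenous transcripts.

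All members other than PCA3 and PCGEM1 were measurable in all 6 groups, meaning at least 10 counts in every library of the group. The deposited FPKM values, which divide by exon length, put them in this order over 18 libraries: GAS5 averaged 59.1 FPKM (40.1 to 93.9), MALAT1 25.3 FPKM (9.39 to 41.8), NEAT1 8.40 FPKM (3.63 to 15.7), PCAT1 3.50 FPKM (1.70 to 5.72) and DRAIC 0.432 FPKM (0.135 to 0.788). PCGEM1 followed with a mean of 0.197 FPKM (0.0203 to 0.477) and PCA3 with 0.0274 FPKM (0.00294 to 0.0732). The ranges of neighbours in this order overlapped except between PCAT1 and DRAIC. The lengths of PCA3, PCAT1 and DRAIC include the wide models described above, so their FPKM would differ under shorter ones.

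**Figure D1:**
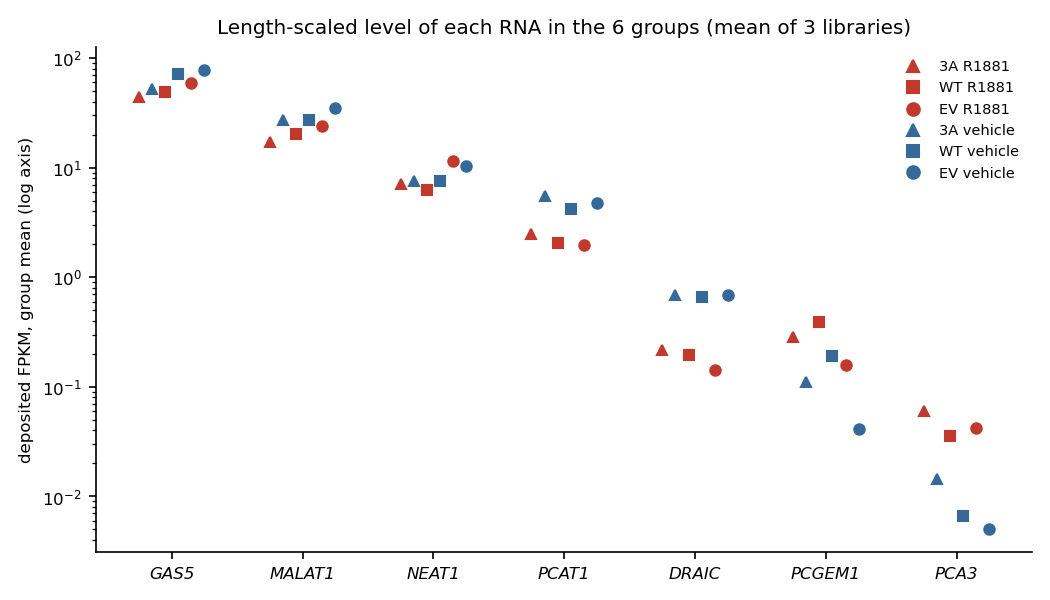
Deposited FPKM (log axis) of the 7 RNAs, each point the mean of 3 libraries in 1 of the 6 groups, R1881 in red and vehicle in blue. GAS5 averaged 59.1 FPKM over all libraries and PCA3 0.0274 FPKM; the R1881 points lie above the vehicle points of the same rescue state for PCA3 and PCGEM1 and below them for PCAT1, DRAIC, MALAT1 and GAS5.

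PCA3 had few reads. It was measurable in the 3A and EV groups given R1881 and in no other group, with 1 to 29 counts per library. PCGEM1 had 1 to 21 counts and was measurable in WT cells given R1881 only. Both passed the filter through the libraries where they are high, so their being tested was not independent of these differences, and their calls carry less weight than those of the other members. The plot of each library shows all values.

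**Figure D2:**
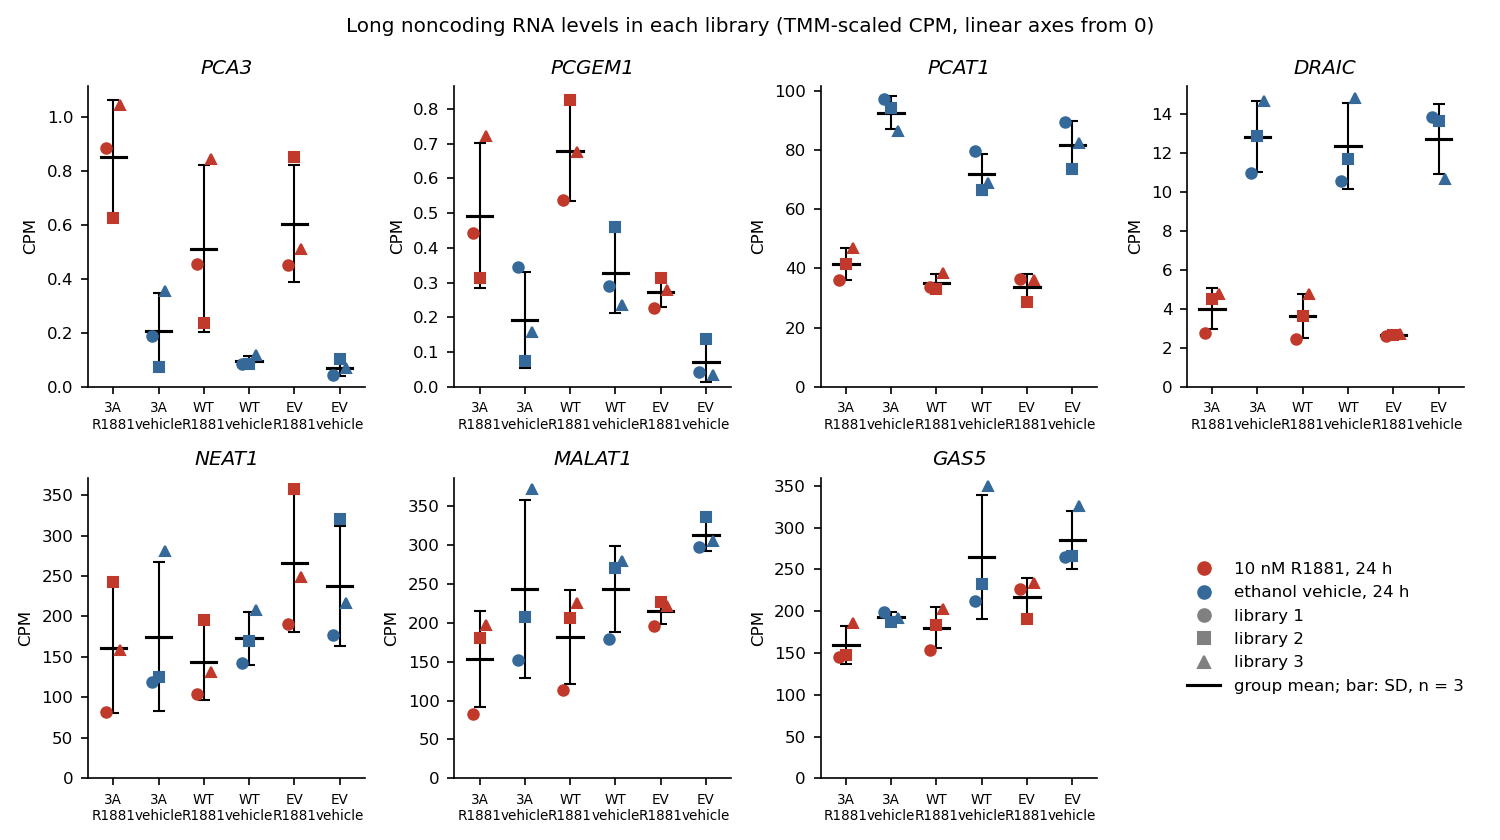
TMM-scaled CPM of each RNA in each of 18 libraries (points, shape by library number; linear axes from 0) with group mean and SD (n = 3), R1881 in red and vehicle in blue. PCA3 lies above its vehicle libraries in each rescue state, PCAT1 and DRAIC lie below theirs without overlap, and NEAT1 and MALAT1 spread widely within groups.

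PCA3 was higher with R1881 in all 3 rescue states. Here and below, sizes given as a rise or a fall are log2 fold changes. In 3A cells PCA3 had 20, 18 and 29 counts with R1881, against 6, 2 and 9 counts with vehicle. In WT cells it had 11, 6 and 20 counts with R1881 and 2, 2 and 3 counts with vehicle. In EV cells it had 10, 19 and 11 counts with R1881, against 1, 3 and 2 counts with vehicle. Every R1881 library lay above every vehicle library of its rescue state. How many of all tested genes lie apart in this way was not counted, so here and below it is description only. The log2 fold change was 2.03 ± 0.55 (SE) in 3A cells (adjusted p = 0.00888, edgeR quasi-likelihood test with Benjamini-Hochberg adjustment over all genes), 2.36 ± 0.65 in WT cells (edgeR adjusted p = 0.0122) and 2.97 ± 0.66 in EV cells (edgeR adjusted p = 0.00186). The call was lost in WT cells without R1881 library 3 (log2 fold change 1.80, edgeR adjusted p = 0.0830) and in 3A cells without vehicle library 2 (1.65, edgeR adjusted p = 0.0530). PRUNE2, the protein-coding gene in which PCA3 lies, rose with R1881 in WT cells by 0.82 (edgeR adjusted p = 0.00328), while its log2 fold changes in 3A and EV cells were 0.15 and 0.46 without a call. The part of PRUNE2 reads in the PCA3 counts was not tested.

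PCGEM1 was higher with R1881 in each state, and no difference was called. It had 10, 9 and 20 counts with R1881 and 11, 2 and 4 counts with vehicle in 3A cells. In WT cells there were 13, 21 and 16 counts with R1881, against 7, 11 and 6 counts with vehicle. In EV cells there were 5, 7 and 6 counts with R1881, against 1, 4 and 1 counts with vehicle. The R1881 and vehicle libraries overlapped in 3A cells and were apart, scaled to CPM, in WT and EV cells. The log2 fold changes were 1.29 ± 0.57 in 3A, 1.04 ± 0.54 in WT and 1.83 ± 0.71 in EV cells (edgeR adjusted p = 0.107, 0.192 and 0.0641), so at this depth a change of the fitted size did not pass. Leaving out vehicle library 1 of 3A gave 2.04 (edgeR adjusted p = 0.0323), and leaving out vehicle library 2 of EV gave 2.69 (edgeR adjusted p = 0.0378).

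Of the listed genes on either side of PCGEM1, both rose with R1881. TMEFF2, a transmembrane protein gene 554 kb away, rose by 0.68, 1.39 and 1.12 on the log2 scale in 3A, WT and EV cells, with edgeR adjusted p-values of 0.000164, 1.67e-08 and 2.95e-07. SLC39A10, a zinc transporter gene 2.80 Mb away, rose by 1.76 in 3A and 1.76 in WT cells and also in EV cells, with edgeR adjusted p-values of 1.44e-07, 1.99e-07 and 1.36e-06.

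PCAT1 (ENSG00000253438), which spans chr8:126556323-127419050 on the plus strand, fell with R1881 in all 3 states. In 3A cells it measured 36.2, 41.7 and 46.9 CPM with R1881, against 97.2, 94.3 and 86.5 CPM with vehicle. In WT cells it measured 33.7, 33.1 and 38.5 CPM with R1881 and 79.7, 66.6 and 69.0 CPM with vehicle. In EV cells it measured 36.4, 28.6 and 36.0 CPM with R1881, against 89.5, 73.5 and 82.4 CPM with vehicle. The 9 R1881 libraries all lay below the 9 vehicle libraries. It fell by 1.15 ± 0.12 in 3A, 1.03 ± 0.12 in WT and 1.28 ± 0.12 in EV cells on the log2 scale (edgeR adjusted p = 1.22e-07, 9.42e-07 and 3.21e-08), which is 0.449, 0.489 and 0.412 of the vehicle level.

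Genes around PCAT1 were mixed. POU5F1B, a retrogene copy of POU5F1 that shares exon bases with PCAT1 and whose reads may therefore be uncertain, fell by 1.73, 1.12 and 1.33 on the log2 scale in 3A, WT and EV cells (edgeR adjusted p = 5.66e-05, 0.00406 and 0.000675). CASC19, another noncoding gene of the region, fell in WT and EV cells (log2 fold changes -1.64 and -1.60, edgeR adjusted p = 0.0498 and 0.0330), with a log2 fold change of -0.44 in 3A that was not called. PVT1, the noncoding gene downstream of MYC, fell by 0.61 in EV cells (edgeR adjusted p = 0.0200), with -0.36 in 3A and -0.36 in WT cells without a call. CASC8 had log2 fold changes of -0.51, 0.06 and -0.44 in 3A, WT and EV cells, none called by edgeR.

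DRAIC showed the largest fall of the 7. In 3A cells it measured 2.79, 4.51 and 4.76 CPM with R1881, against 11.0, 12.9 and 14.7 CPM with vehicle. In WT cells it measured 2.48, 3.65 and 4.78 CPM with R1881 and 10.6, 11.7 and 14.8 CPM with vehicle. In EV cells it measured 2.61, 2.65 and 2.70 CPM with R1881, against 13.9, 13.7 and 10.7 CPM with vehicle. No R1881 library reached any vehicle library, and the EV libraries given R1881 were the closest to each other. DRAIC fell by 1.67 ± 0.22, 1.77 ± 0.22 and 2.26 ± 0.23 on the log2 scale in 3A, WT and EV cells (edgeR adjusted p = 4.54e-06, 3.56e-06 and 1.43e-07). ITGA11, an integrin gene 1.03 Mb away, had log2 fold changes of 0.29, 1.08 and 0.42 with no call.

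NEAT1 and MALAT1 were not called in any response to R1881 in the main fit, which has 6 groups and no replicate block. Their libraries scattered widely. NEAT1 measured 82.3, 242 and 159 CPM with R1881 and 119, 125 and 281 CPM with vehicle in 3A cells. In WT cells it measured 104, 196 and 131 CPM with R1881, against 142, 170 and 207 CPM with vehicle. In EV cells it measured 191, 358 and 249 CPM with R1881, against 177, 320 and 216 CPM with vehicle. The R1881 and vehicle libraries overlapped in each state. The log2 fold changes were -0.12 in 3A (95% interval -0.83 to 0.60), -0.27 in WT (-0.99 to 0.45) and 0.16 in EV cells (-0.56 to 0.88), with edgeR adjusted p-values of 0.851, 0.659 and 0.785. These intervals still hold changes of over 1.5 times in one direction or both.

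MALAT1 was lower on average with R1881. It measured 82.7, 180 and 197 CPM with R1881, against 152, 207 and 372 CPM with vehicle, in 3A cells. In WT cells it measured 113, 206 and 225 CPM with R1881, against 179, 271 and 280 CPM with vehicle. In EV cells it measured 196, 226 and 222 CPM with R1881, against 298, 336 and 306 CPM with vehicle. Only the EV groups did not overlap. Compared by library number, each R1881 library was below the vehicle library of the same number in each state. The log2 fold changes were -0.67 ± 0.30 in 3A, -0.42 ± 0.29 in WT and -0.54 ± 0.29 in EV cells (edgeR adjusted p = 0.109, 0.356 and 0.197). Without vehicle library 1, the 3A value was -0.92 (edgeR adjusted p = 0.0305). In EV cells, a fit of the 2 EV groups alone gave the same log2 fold change of -0.54 with an edgeR adjusted p of 0.000219, and the replicate block gave -0.55 with an edgeR adjusted p of 0.0260. The block also called MALAT1 lower in 3A cells (-0.67, edgeR adjusted p = 0.00805).

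The scatter of this pair was unusual for the depth. The fitted dispersion of NEAT1 was 8.42 times the trend for genes of its abundance, a ratio higher than that of 99.9% of tested genes, and that of MALAT1 was 6.24 times the trend (99.7%). The corresponding ratios were 1.75 for GAS5, 1.11 for DRAIC and 0.919 for PCAT1. Library 1 was the lowest of its group for NEAT1 in 6 of 6 groups and for MALAT1 in 6 of 6 groups. The share of counts on mitochondrially encoded mRNAs was also lowest in library 1 in 6 of 6 groups. NEAT1 and MALAT1 lay on the same side of their group means in 15 of 18 libraries, NEAT1 and the mitochondrial share in 15, and MALAT1 and that share in 16. These counts describe libraries that share preparation and scaling, and the part of the mitochondrial share in the levels was not tested.

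**Figure D3:**
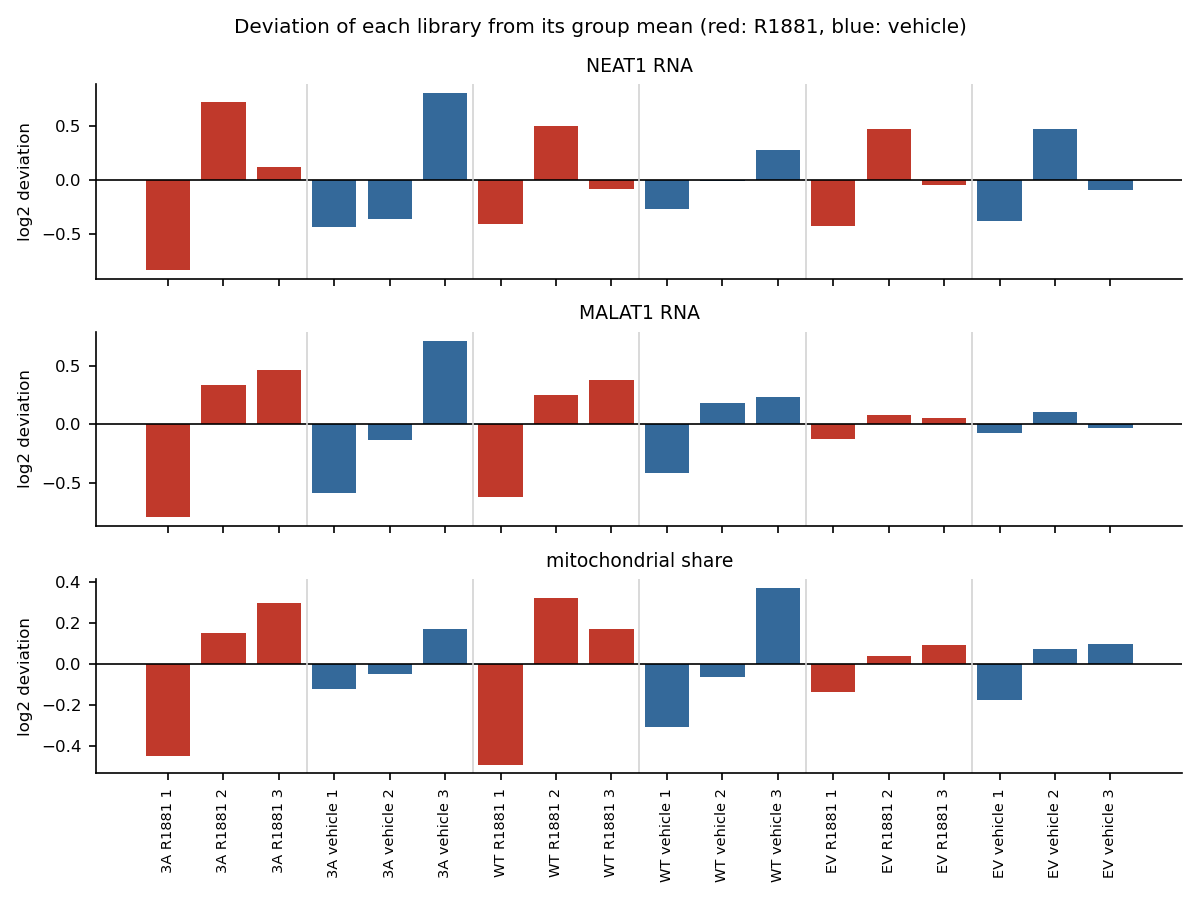
Log2 deviation of each library from its group mean for NEAT1, MALAT1 and the share of counts on mitochondrially encoded mRNAs, with R1881 libraries in red and vehicle libraries in blue. Library 1 is the lowest of its group in all 6 groups for each of the 3 measures.

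Of the genes near the pair, FRMD8 had log2 fold changes of -0.14, -0.05 and 0.06 and LTBP3 of 0.07, 0.00 and -0.04 in 3A, WT and EV cells with R1881, none called by edgeR. Of 22 genes for paraspeckle proteins and NEAT1 end processing, 1, 1 and 2 rose and 3, 3 and 3 fell in 3A, WT and EV cells, with median log2 fold changes of -0.07, -0.07 and -0.05. The list's shares called, 18.2%, 18.2% and 22.7%, are below the 24.5%, 20.1% and 25.3% of all tested genes. RBM12, an RNA-binding protein gene, rose in each state (0.35, 0.46 and 0.36), RBM7 fell in WT and EV cells (-0.52 and -0.60), and SFPQ, which encodes a core paraspeckle protein, fell in WT cells (-0.22). CIRBP, which encodes a cold-inducible RNA-binding protein, fell in WT cells as well (-0.47). Of 18 genes for nuclear speckle proteins, 0, 1 and 0 rose and none fell; SRRM1, a splicing coactivator gene, was the one in WT cells (0.48, edgeR adjusted p = 0.00814), where 5.56% of the list and 20.1% of all genes were called.

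GAS5 was lower with R1881 in each state and passed the test in WT cells. In 3A cells it measured 145, 148 and 186 CPM with R1881, against 199, 187 and 192 CPM with vehicle. In WT cells it measured 154, 184 and 203 CPM with R1881, against 212, 232 and 349 CPM with vehicle. In EV cells it measured 226, 190 and 234 CPM with R1881, against 264, 266 and 326 CPM with vehicle. The groups did not overlap in any state, by a narrow margin in 3A cells. The log2 fold change was -0.55 ± 0.15 in WT cells (edgeR adjusted p = 0.0116), -0.27 ± 0.15 in 3A cells (edgeR adjusted p = 0.219) and -0.40 ± 0.15 in EV cells (edgeR adjusted p = 0.0603; called with the replicate block at -0.39, edgeR adjusted p = 0.00773). The WT call was lost when single libraries were left out: without vehicle library 3 the value was -0.30 (edgeR adjusted p = 0.118), and without R1881 library 1 it was -0.45 (edgeR adjusted p = 0.0793). The call was also lost with all libraries when only the WT groups were fitted (-0.56, edgeR adjusted p = 0.0510). The mitochondrial share of WT libraries ranged from 2.71% to 4.77% with R1881 and from 3.55% to 5.70% with vehicle, and its part in the GAS5 values was not tested.

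Other snoRNA host genes gave counts in the same direction. Of 23 tested of 27 listed, 4 fell in 3A, 3 in WT and 6 in EV cells, and none rose by edgeR. Their medians were -0.21, -0.25 and -0.23, against -0.01, -0.03 and -0.02 over all tested genes. Over 2533 tested genes of the long noncoding biotypes they were -0.14, -0.20 and -0.15, nearer to those of the host genes. SNHG3 fell by 0.62, 0.51 and 0.75 in 3A, WT and EV cells, and SNHG20 fell by 0.34, 0.35 and 0.36. SNHG5 fell by 0.45 in 3A and 0.53 in WT cells. Over all tested genes, 24.5%, 20.1% and 25.3% were called in these comparisons, against 17.4%, 13.0% and 26.1% of the host genes. Of 14 nonsense-mediated decay factors, SMG5 rose in each state (0.39, 0.34 and 0.45), UPF1, named after its value was seen, rose in EV cells (0.33), and none fell. That is 7.14%, 7.14% and 14.3% called in 3A, WT and EV cells, below the shares of all tested genes. The medians of these factors were -0.09, 0.13 and 0.06. ZBTB37, a zinc finger gene that starts within GAS5 on the opposite strand, rose by 0.41, 0.54 and 0.44 in 3A, WT and EV cells (edgeR adjusted p = 0.0183, 0.00299 and 0.0106). GAS5-AS1 (0.07, -0.07 and 0.41) was not called by edgeR.

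Counted over the 7 RNAs, 3 were called in 3A, 4 in WT and 3 in EV cells with R1881, where the shares of all tested genes called were 24.5%, 20.1% and 25.3%. One of the calls in each state is PCA3, whose passing of the filter depended on its R1881 libraries; of the other 6, 2, 3 and 2 were called in 3A, WT and EV cells, within 1 gene of those shares in 3A and EV cells and 2 genes in WT cells. The 3 responses were then compared with each other. Of the 7 RNAs, 0 differed in response by edgeR for 3A minus WT, 3A minus EV or WT minus EV, where 0.0583%, 0.0117% and 0.198% of all genes were called, and at an unadjusted p under 0.05 the count was also 0, as it was by DESeq2 after adjustment. The DRAIC response was 0.59 less negative in 3A than in EV cells (95% interval -0.06 to 1.24), and the PCAT1 response 0.13 less negative (-0.22 to 0.47). For GAS5 the difference 3A minus EV was 0.13 (-0.32 to 0.57). The intervals for NEAT1 (-1.29 to 0.74) and PCA3 (-2.75 to 0.87) are wide, and no likeness of response follows from a missing call.

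**Figure D4:**
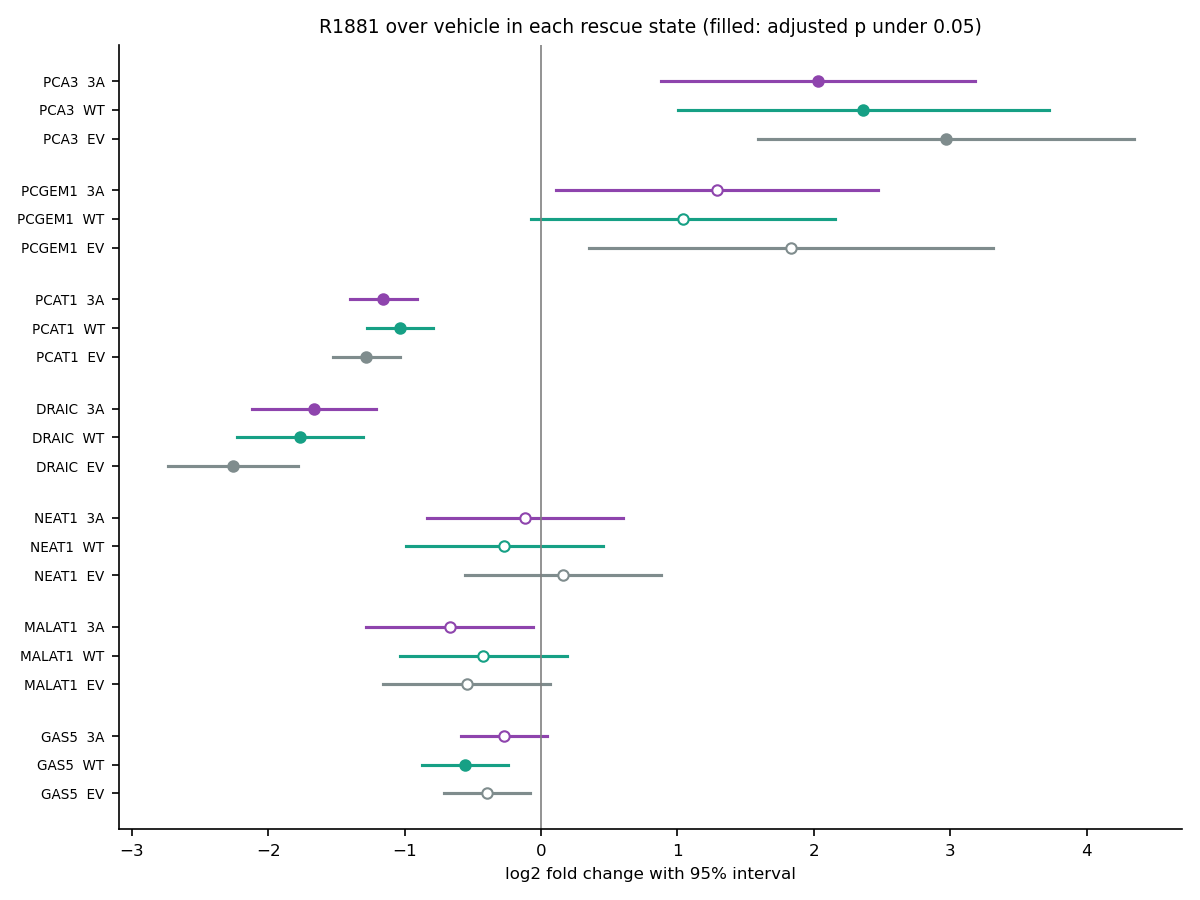
Log2 fold change of R1881 over vehicle with 95% interval for each RNA in 3A, WT and EV cells, filled where the edgeR adjusted p is under 0.05. PCA3 is filled and above 0 in each state, PCAT1 and DRAIC are filled and below 0 in each state, and GAS5 is filled in WT cells.

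Other listed long noncoding RNAs known from prostate cancer rose more often than they fell. The list was chosen with earlier results of these data known, so its share called is no test of such RNAs as a class. Of 14 tested of 25 listed, 6, 6 and 7 rose and 0, 0 and 1 fell in 3A, WT and EV cells, with medians of 0.69, 0.34 and 0.38; that is 42.9%, 42.9% and 57.1% called, where 24.5%, 20.1% and 25.3% of all tested genes were. ARLNC1, an RNA known to stabilise androgen receptor mRNA, rose by 4.34, 3.15 and 3.76 on the log2 scale. SOCS2-AS1 rose by 3.37, 1.56 and 3.29, PART1 by 2.38, 1.48 and 1.65, and CTBP1-AS by 1.59, 2.00 and 2.03. PCAT19, named after its value was seen, was the 1 that fell, in EV cells (-1.27, edgeR adjusted p = 0.0104). Of 10 tested other widely expressed long noncoding RNAs, 3, 2 and 3 rose and none fell by edgeR in 3A, WT and EV cells, and these shares, 30.0%, 20.0% and 30.0%, lie near those of all genes. OIP5-AS1 rose by 0.42, 0.49 and 0.28 and LINC-PINT by 1.55, 1.21 and 1.74.

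Between rescue states, 1 of the 7 RNAs was called once in the main fit. GAS5 in vehicle measured 199, 187 and 192 CPM in 3A cells, against 264, 266 and 326 CPM in EV cells. The 3A libraries all lay below the EV libraries. The log2 fold change was -0.57 ± 0.15 (edgeR adjusted p = 0.0241), in a comparison where 7.25% of all genes were called, and a single call among 7 lies near that share. The call was lost without EV library 3 (-0.46, edgeR adjusted p = 0.139) and without 3A library 1 (-0.59, edgeR adjusted p = 0.0524), 2 (-0.55, edgeR adjusted p = 0.0876) or 3 (-0.56, edgeR adjusted p = 0.0721). The mitochondrial share was 3.80% to 4.66% in these 3A libraries and 4.46% to 5.39% in the EV libraries, and its part was not tested. With R1881, GAS5 was again lower in 3A than in EV cells without overlap (-0.44 ± 0.15, edgeR adjusted p = 0.0772; called with the replicate block at -0.45, edgeR adjusted p = 0.00763). Against WT cells in vehicle, 3A cells had a GAS5 log2 fold change of -0.46 ± 0.15 (edgeR adjusted p = 0.0830; -0.59 and 0.0223 without WT library 1), again without overlap, and in R1881 of -0.18 ± 0.15 (edgeR adjusted p = 0.644). The comparisons with 3A share the 3A libraries.

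Of the 23 snoRNA host genes, 1 rose and 3 fell in 3A against EV cells in vehicle, and 2 rose and 4 fell with R1881, with medians of -0.34 and -0.31. That is 17.4% and 26.1% called, where 7.25% and 8.45% of all genes were. The tested genes of the long noncoding biotypes had medians of -0.17 and -0.16 in these comparisons. SNHG5 fell by 0.56 in vehicle and 0.77 with R1881, and SNHG20 by 0.51 and 0.48. Named after their values were seen, ZFAS1 fell by 0.98 in vehicle, SNHG19 fell by 1.05 and SNHG8 by 0.57 with R1881, SNHG16 rose by 0.44 in vehicle and 0.39 with R1881, and SNHG14 rose by 0.40 with R1881.

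No other member was called between rescue states in the main fit. At an unadjusted p under 0.05, edgeR gave 2 members in vehicle and 1 with R1881 in 3A against WT cells, where 3439 and 2699 of 17162 genes (20% and 15.7%) passed that threshold. It gave 4 members in 3A against EV cells with R1881 (3946 genes, 23%), and 1 in vehicle and 2 with R1881 in WT against EV cells (1265 and 4208 genes, 7.37% and 24.5%). Apart from the 4, these counts lie within 1 gene of those shares. DESeq2 called 2, 0, 1, 0 and 0 of 7 after adjustment in these comparisons. In 3A against WT cells, where 5.63% of genes were called in vehicle and 3.18% with R1881, PCAT1 was higher in vehicle without overlap (log2 fold change 0.37 ± 0.12, edgeR adjusted p = 0.0642; 0.45 and 0.0336 without WT library 1). In 3A against EV cells with R1881, where 8.45% of genes were called, DRAIC was higher without overlap (0.61 ± 0.24, edgeR adjusted p = 0.121; 0.80 and 0.0384 without 3A library 1), and NEAT1 had -0.72 ± 0.35 (edgeR adjusted p = 0.216). With the replicate block, NEAT1 (-0.78, edgeR adjusted p = 0.0302) and MALAT1 (-0.58, edgeR adjusted p = 0.0414) were called lower in that comparison. In WT against EV cells, where 0.769% of genes were called in vehicle and 8.7% with R1881, NEAT1 with R1881 measured 104, 196 and 131 CPM in WT and 191, 358 and 249 CPM in EV cells, which overlap by 1 library (-0.89 ± 0.35, edgeR adjusted p = 0.115). With the replicate block, this NEAT1 difference with R1881 was called (-0.89, edgeR adjusted p = 0.0140). Each of these WT libraries was below the EV library of the same number. MALAT1 in vehicle was not called between WT and EV cells (-0.36 ± 0.29, edgeR adjusted p = 0.949), though its WT libraries all lay below the EV libraries. The share of all genes whose libraries lie apart was not counted, so such gaps carry no weight beside the test.

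PCGEM1 was higher in WT than in EV cells in both treatments. It had 7, 11 and 6 counts in WT and 1, 4 and 1 counts in EV cells in vehicle, and 13, 21 and 16 counts in WT against 5, 7 and 6 counts in EV cells with R1881. The libraries did not overlap in either treatment on the CPM scale. The log2 fold changes were 2.09 ± 0.69 (edgeR adjusted p = 0.267) and 1.30 ± 0.55 (edgeR adjusted p = 0.149), so neither was called. TMEFF2, its distant neighbour, rose in WT against EV cells by 0.54 in vehicle and 0.81 with R1881 (edgeR adjusted p = 0.0272 and 0.000261). It rose in 3A against EV cells in vehicle as well (0.68, edgeR adjusted p = 0.000602), with 0.24 and no call in R1881. The PCGEM1 log2 fold changes of 3A over EV were 1.38 in vehicle and 0.84 with R1881, with overlapping libraries (edgeR adjusted p = 0.279 and 0.391).

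**Figure D5:**
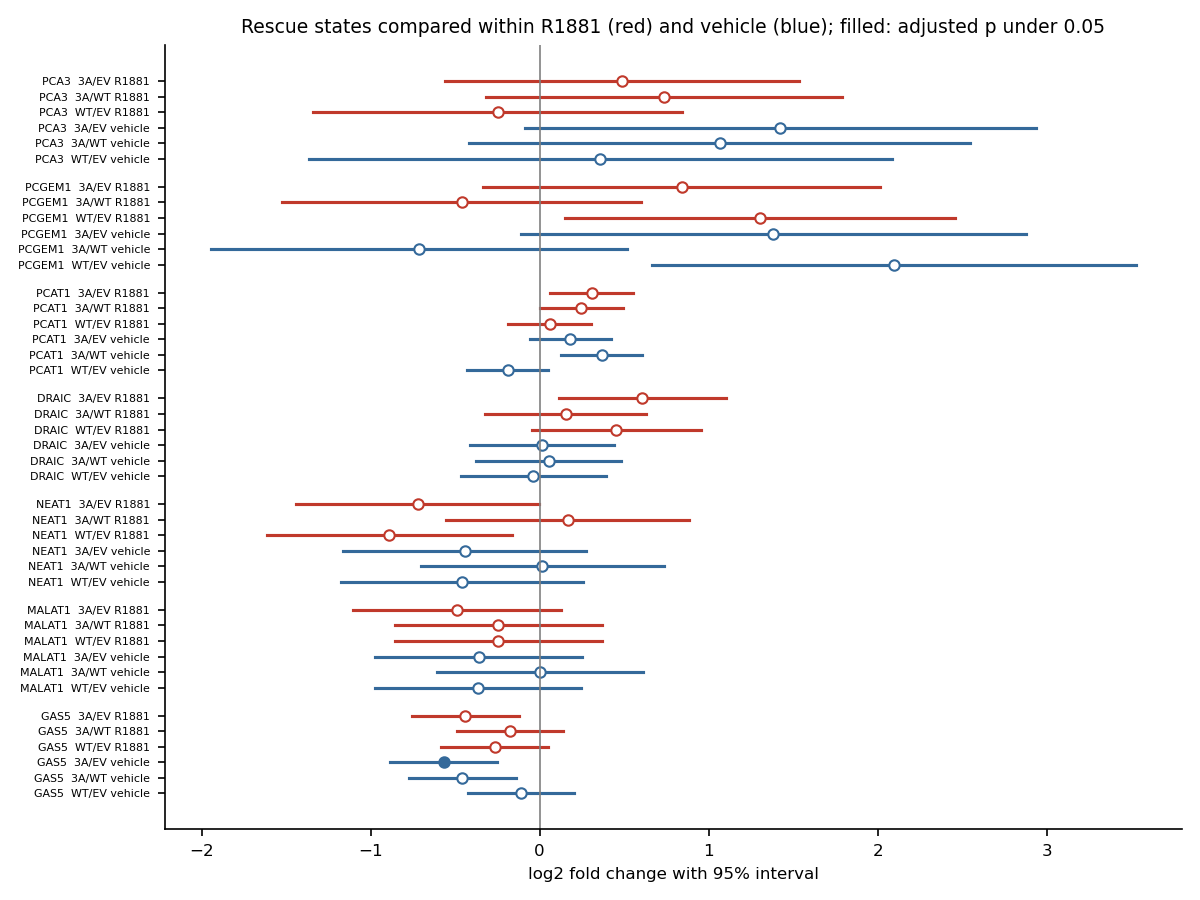
Log2 fold changes with 95% intervals of 3A over EV, 3A over WT and WT over EV for each RNA, within R1881 (red) and vehicle (blue), filled where the edgeR adjusted p is under 0.05. GAS5 in 3A over EV in vehicle is the filled point, at -0.57, and the PCA3 and PCGEM1 intervals are the widest.

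Over the 6 group means of log2 CPM, the 3 tested genes closest to each member were found by the root mean square difference after centring, for members whose means span at least 1 log2 unit. For PCA3 (span 2.62) they were AL354714.2, CRISPLD2 and CADPS2, at 0.0782, 0.0920 and 0.148 log2 units. For PCGEM1 (span 2.38) they were GPC6, PIK3AP1 and PRR16, at 0.186, 0.190 and 0.250. PCAT1 (span 1.47) was closest to RTN4RL1, SPOCK2 and IRX5, at 0.0864, 0.0892 and 0.0970. DRAIC (span 2.23) was closest to FAM198B-AS1, SRGAP3 and BARD1, at 0.0924, 0.120 and 0.132. MALAT1 (span 1.13) was closest to CSAD, TMEM147-AS1 and CARD9, at 0.0420, 0.0433 and 0.0533. These are descriptions over 6 points per gene that share the same libraries. For PCA3 and PCGEM1 they carry little: both fall under 10 counts in libraries of most groups, and the 6 PCA3 counts of EV cells in vehicle alone have a 95% counting interval of 2.20 to 13.1.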

How the data were processed

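The authors deposited counts, whole reads per gene, and FPKM values with gene lengths in bases for 58735 genes in 18 libraries. Per the submitters' processing notes, HISAT2 2.0.5, featureCounts 1.5.0-p3 and hg38 were used; the tools' settings, strand use, annotation release and handling of multiply mapped reads included, are not given in these sources. Per the labels, RNA was total RNA in paired-end libraries. No column of other samples was set aside.

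The tests used R 4.3.3, edgeR 4.0.16 and limma 3.58.1 on the deposited counts: filterByExpr (minimum count 10, minimum total 15), TMM scaling, and a quasi-likelihood fit of 6 groups over 18 libraries with 12 residual degrees of freedom. P-values were Benjamini-Hochberg adjusted over 17162 genes, and an adjusted p under 0.05 was called. Intervals are at 95%, and standard errors come from the F statistic. Depths were 22812641 to 30611980 counts, so a member with a few reads carries a large counting error, and without molecular identifiers this covers counting only. FPKM, as deposited, was used for levels between genes. The script was tested on simulated data.

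Named were the 7 members, HOXB13, tested neighbours (some are not reported here), up to 4 genes per list with the smallest adjusted p among those called in R1881 against vehicle in WT, and the 3 closest genes per member. Members and lists were chosen with earlier results of these data known. Same-numbered libraries deviated together, with all 3 correlations over 0.1, in R1881 against vehicle in EV (0.163 to 0.198) and 3A against EV with R1881 (0.105 to 0.154) and in no other comparison, so the replicate block stands beside those results. Alternatives were other scalings, filters and fits, DESeq2 1.42.0, and each library left out. PCAT29, TALAM1, PCAT2, POTEF-AS1, SNHG29, SNHG30 and SNHG32 were not analysed here.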

Additional observations from a re-analysis of the deposited data

How the results depend on the processing

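Over single values of members, 0 alternatives reversed a called direction. PCAT1 and DRAIC kept their R1881 calls under all 13 alternatives in each rescue state. PCA3 and PCGEM1 are too low for a filter of 1 CPM in 3 libraries and could not be tested there. The number of the 7 RNAs called with R1881 was 3 in 3A cells (2 to 5 with 1 library left out; 5 without 3A vehicle library 1), 4 in WT cells (3 to 4) and 3 in EV cells (3 to 4; 5 without a filter and 5 with only the groups compared in the fit). In 3A against EV cells it was 1 in vehicle (0 to 1 with 1 library left out; 3 without a filter) and 0 with R1881 (0 to 1; 3 without a filter, 1 with only the groups compared and 1 by DESeq2). In 3A against WT cells in vehicle it was 0 (0 to 2 with 1 library left out, 2 being without WT library 1; 2 without a filter, 1 with the 1 CPM filter and 2 by DESeq2). In WT against EV cells it was 0, with 1 in vehicle and 1 with R1881 without a filter and 1 with R1881 with only the groups compared. The cause of these moves was not tested. Shares over all genes are not given for each of these settings, so a moved count is no result about the members. Without a filter, NEAT1 was called lower in WT than in EV cells (vehicle -0.46, R1881 -0.91) and in 3A than in EV cells (-0.44 and -0.75). MALAT1 was called lower with R1881 without a filter in all 3 states (-0.67 in 3A, -0.41 in WT and -0.51 in EV cells). GAS5 in 3A against EV cells with R1881 was called by DESeq2 (-0.44, adjusted p = 0.0398).

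Over all genes, calls in WT against EV cells in vehicle numbered 132, and 325 without a filter, 64 with only the groups compared and 236 by DESeq2. With R1881 they numbered 1493, and 2343 with only the groups compared. In 3A against WT cells there were 967 calls in vehicle and 522 with only the groups compared, and 545 with R1881, 869 without a filter and 893 by DESeq2. Differences of responses gave 34 calls for WT minus EV (226, 19 and 151 without a filter, with only the groups compared and by DESeq2), 2 for 3A minus EV (62, 8 and 8) and 10 for 3A minus WT (178, 2 and 81). Mean CPM by plain library size moved by more than 1 SD for DRAIC in EV cells with R1881 (2.50 against 2.65) and for GAS5 in 3A cells with vehicle (203 against 193).

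Library numbers do not establish a pairing over the whole design: deviations of same-numbered libraries correlated by a median of 0.121 (-0.141 to 0.283; 26 of 45 pairs over 0.1), against -0.063 for other pairs, although 15 of 18 libraries had their best partner under their own number, a hint from the data. With the number as a replicate block, 5, 4 and 5 RNAs were called with R1881 in 3A, WT and EV cells, 1 and 3 in 3A against EV, 2 and 0 in 3A against WT and 0 and 1 in WT against EV cells in vehicle and with R1881, and 0 in each difference of responses. Calls also grew among the 2533 long noncoding genes with R1881, from 143 higher and 233 lower to 155 and 278 in 3A cells. They grew from 89 and 191 to 101 and 232 in WT, and from 118 and 233 to 140 and 278 in EV cells. The block's share over all genes with R1881 is not given here, so these counts are no result about the members. Beside the values given with the comparisons, the block called GAS5 lower with R1881 in 3A cells (-0.29, edgeR adjusted p = 0.0488). In 3A against WT cells in vehicle, it called PCAT1 higher (0.37, edgeR adjusted p = 0.0244) and GAS5 lower (-0.43, edgeR adjusted p = 0.0140). Over all genes the block gave 2072 and 2409 calls in 3A against EV, 1732 and 1046 in 3A against WT and 270 and 2708 in WT against EV cells, and 133, 6 and 96 for WT minus EV, 3A minus EV and 3A minus WT responses.

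Depth limits PCA3 and PCGEM1 most, with 1 to 29 and 1 to 21 counts.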

Other observations

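Long noncoding genes as a class had more lower than higher calls in 3A cells. Of 2533 tested genes of the long noncoding biotypes, 16 rose and 77 fell in 3A against EV cells in vehicle (median log2 fold change -0.17), and 22 rose and 98 fell with R1881 (median -0.16), by edgeR; over all genes the counts were 682 and 562 in vehicle and 754 and 697 with R1881. Against WT cells, 4 rose and 64 fell in vehicle (median -0.17) and 5 rose and 25 fell with R1881 (median -0.10). Over all genes, 453 rose and 514 fell there in vehicle, and 242 and 303 with R1881. The class had smaller shares called than all genes: 3.67% and 4.74% against EV cells in vehicle and with R1881, beside 7.25% and 8.45%. Against WT cells they were 2.68% and 1.18%, beside 5.63% and 3.18%. In WT against EV cells, 5 rose and 2 fell in vehicle and 21 rose and 32 fell with R1881. Over all genes these counts were 111 and 21, and 799 and 694. Leaving out 1 library at a time, chosen after seeing the data, gave 6 to 13 higher and 32 to 70 lower calls in 3A against EV cells in vehicle with medians of -0.22 to -0.13, and 5 to 23 higher and 39 to 79 lower calls with R1881 with medians of -0.21 to -0.12. Against WT cells, it gave 23 to 104 lower calls in vehicle with medians of -0.23 to -0.08, and 13 to 22 with R1881 with medians of -0.17 to -0.01; the R1881 median nearest to 0, with 50.8% of the genes below 0, came without WT R1881 library 3. GAS5 at -0.57 in vehicle was one of the genes that fell, while PCAT1 (0.18) and DRAIC (0.01) were not below EV.

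With R1881 the class also fell more often than it rose. There were 143 higher and 233 lower calls in 3A, 89 and 191 in WT, and 118 and 233 in EV cells, against 2130 and 2072, 1882 and 1568, and 2270 and 2066 over all genes. KRT14, a basal keratin gene, rose by 3.78, 3.48 and 3.21 on the log2 scale in 3A, WT and EV cells. The standard errors were 0.92, 0.74 and 1.05, with edgeR adjusted p-values of 0.00389, 0.00147 and 0.0278. KRT14 was measurable in no group, so these calls carry less weight than those of genes measurable in all groups. It comes from a marker list in which TP63 was at 0 and KRT5 had at most 2 counts in any library. The other tested markers of that list, ACTA2 (-0.40, -1.24 and -0.55) and COL1A1 (-0.44, -0.47 and -0.35 in 3A, WT and EV cells), were called lower in WT cells (edgeR adjusted p = 0.0343 and 0.0485).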
